A study of Mus musculus with 9 samples.

Results

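The transcripts described here are annotated long non-coding RNAs (lncRNAs) of the mouse renal cortex. They were selected on their mean level: of 2071 annotated lncRNA transcripts with deposited values, the 809 with a mean of at least 1 FPKM over all 9 libraries were selected, and they come from 694 of 1672 genes. FPKM scales the fragments sequenced from a transcript by its length and by the depth of its library. The whole series holds 53192 transcripts, of which 50660 are mRNAs. The selection used the mean level and no difference between groups, but 141 members had a group mean below 1 FPKM, so that they were included through the groups in which they were higher. The other 668 were at or above 1 FPKM in every group.

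The libraries came from the renal cortex of male C57BL/KsJ mice at 15 weeks of age, 1 library per mouse and 3 per group. Control mice were db/m littermates, heterozygous for the db mutation of the leptin receptor, and received vehicle. The dbdb mice were homozygous for db and received vehicle, and the dbR mice were homozygous for db and received 20 mg/kg/day of rosiglitazone, which activates the nuclear receptor PPARγ, by gavage for 8 weeks from 7 weeks of age. All 9 mice thus carry at least 1 mutant allele, no db/m mouse received rosiglitazone, and obesity, diabetes and genotype cannot be told apart in dbdb vs. control.

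LncRNAs are transcripts without a recognised protein product. Some stay at their own locus, where they run through, against or beside a coding gene and can act on its transcription or splicing. Others are processed for what lies in their introns or exons, such as the small nucleolar RNAs (snoRNAs) that guide the chemical modification of ribosomal RNA, or microRNAs. The most abundant ones in many tissues are nuclear RNAs such as Malat1. A 5′ run of pyrimidines is known from the mRNAs of ribosomal proteins and from snoRNA hosts such as Gas5, and makes their stability and use depend on translation and nutrient signalling.

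The sequences that the later results refer to are given first. For snoRNA hosts, RefSeq promoters (build GRCm38.p6) were available for 12 genes with 14 starts, and 6 starts began with at least 4 C or T bases, which is 42.9%, compared to 10.3% of the 290 promoters of all members and 6.86% of 32851 promoters. Each line gives 20 bases before and 30 bases after the annotated start on the strand of the gene, and capitals mark the pyrimidine run.
Gas5: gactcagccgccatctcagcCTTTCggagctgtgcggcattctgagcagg
Snhg8: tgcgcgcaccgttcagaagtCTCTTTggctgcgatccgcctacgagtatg
Snhg12: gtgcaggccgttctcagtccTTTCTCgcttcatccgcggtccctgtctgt
Snhg17: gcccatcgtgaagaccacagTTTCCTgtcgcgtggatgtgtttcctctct
2410006H16Rik: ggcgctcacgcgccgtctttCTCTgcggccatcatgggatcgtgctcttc
Snhg18: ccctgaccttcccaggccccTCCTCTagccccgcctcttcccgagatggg
The windows lie at chr1:161035146-161035195 (plus strand, Gas5), chr3:123508307-123508356 (minus, Snhg8), chr4:132308658-132308707 (plus, Snhg12), chr2:158361480-158361529 (minus, Snhg17), chr11:62602857-62602906 (plus, 2410006H16Rik) and chr15:32244633-32244682 (minus, Snhg18).

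The study's quantitative PCR primers were located in 4 member transcripts of the GENCODE M21 annotation (GRCm38). The amplicons of AI838599 and Snhg18 are shown because these members carry calls discussed below, with the primer sites in capitals.
AI838599: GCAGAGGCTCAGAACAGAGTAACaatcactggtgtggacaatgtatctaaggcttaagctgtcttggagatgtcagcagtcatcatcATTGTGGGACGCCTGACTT
Snhg18: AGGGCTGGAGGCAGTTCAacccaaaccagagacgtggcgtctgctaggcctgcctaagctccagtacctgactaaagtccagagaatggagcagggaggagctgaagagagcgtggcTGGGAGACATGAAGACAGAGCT
The AI838599 amplicon of 106 bases spans bases 219 to 324 of a transcript of 543 bases at chr4:3247356-3252870 (plus strand), and the Snhg18 amplicon of 139 bases spans bases 218 to 356 of a transcript of 1486 bases at chr15:32240565-32244662 (minus strand). Mir22hg, which passed the test in both comparisons with the control group, holds the precursor of miR-22, and both mature arms are given from RefSeq with the seed (bases 2 to 8) in capitals.
mmu-miR-22-3p: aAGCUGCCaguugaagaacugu
mmu-miR-22-5p: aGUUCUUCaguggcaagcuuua
They lie at chr11:75463772-75463793 and chr11:75463734-75463755 on the plus strand. Finally, 300 bases around the start of 3110045C21Rik, the member with the lowest adjusted p in both comparisons with the control group, are shown at chr1:169969159-169969458 (plus strand), with 250 bases before the start.
3110045C21Rik: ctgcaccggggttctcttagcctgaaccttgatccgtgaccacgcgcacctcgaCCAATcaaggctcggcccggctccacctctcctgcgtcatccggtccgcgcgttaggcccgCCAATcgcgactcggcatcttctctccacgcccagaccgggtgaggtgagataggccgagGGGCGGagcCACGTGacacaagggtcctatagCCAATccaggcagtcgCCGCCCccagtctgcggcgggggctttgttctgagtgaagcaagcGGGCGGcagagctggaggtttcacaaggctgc
Capitals mark matches, on either strand, to the CCAAT box (CCAAT), the GC box (GGGCGG) and the E-box (CACGTG). At least 1 match was held by 110, 133 and 29 of the 290 promoters of members (37.9%, 45.9% and 10%), and by 37.4%, 35.7% and 7.15% of all promoters of the same length, so these letters are common and a match is a description only.

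Most members were rare transcripts. The mean lay between 1 and 2 FPKM for 379, between 2 and 10 for 342, between 10 and 100 for 78 and at or above 100 for 10, with a median of 2.14 FPKM. Just inside the limit were F420014N23Rik, 4930480K23Rik and Gm43573 with means of 1.0005, 1.0008 and 1.0015 FPKM, and just outside were Gm43039, 1700056N10Rik and Gm37204 with 0.9967, 0.9983 and 0.9995. In the annotation, 791 members were found by transcript ID. Of these, 307 overlapped a coding gene on the opposite strand, 204 overlapped one on the same strand without coding themselves, 86 started within 2 kb of the start of a coding gene on the other strand (divergent), 164 had a coding gene within 100 kb and 30 lay farther away. The median length was 1113 bases, 166 members had a single exon, and 126 carried the biotype TEC, a class of mostly single-exon models that still await experimental testing.

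The 10 highest members held 70.2% to 75.9% of the members' summed FPKM in each library. They were 3 transcripts of Malat1, Gm26917, Gm28967, Gm20417, Gm17035, Yam1, Gm28959 and Gm15655. The 3 transcripts of Malat1, a nuclear RNA found in splicing speckles, summed to 7606 ± 923 FPKM in the control group, 7607 ± 230.1 in dbdb and 6629 ± 1013 in dbR (SD, n = 3), and the groups overlapped (exact two-sided permutation p = 1 for dbdb vs. control, 0.3 for dbR vs. dbdb and 0.2 for dbR vs. control). With 3 libraries against 3, the smallest p this test can give is 0.1. Gm26917 and Yam1, neighbours on chromosome 17, were at 5.27 and 0.842 FPKM in control replicate 3, whereas each of the other 8 libraries held at least 1083 and 102 FPKM. Both were set apart as possible ribosomal RNA, and whether their reads stem from it was not tested. The sum over all members was 14324 ± 1126, 15783 ± 503 and 14419 ± 1264 FPKM (exact p = 0.3, 0.3 and 0.8 in the same order), and 13408, 13325 and 12739 FPKM without these 2 transcripts (exact p = 0.9, 0.4 and 0.4). Without Malat1 as well, the sums were 5801 ± 180.4, 5718 ± 198 and 6110 ± 89.8 FPKM, and each dbR library lay above the other 6 (exact p = 0.6, 0.1 and 0.1). This separation is that of the FPKM as deposited, and no other scaling was tried for this sum.

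Fragments behind the values, estimated from the steps between low values, ranged from 26.4 × 10⁶ to 32.9 × 10⁶ per library. In bulk tissue, fewer cells of a type and less RNA per cell cannot be told apart. The libraries were made with a directional kit, but whether strand was used when FPKM were estimated is not given in the sources used here, so that reads of a member and of a coding gene overlapping it on either strand may not have been separated. Proximal tubule markers summed to 2340 to 2625 FPKM in control, 2391 to 2975 in dbdb and 2582 to 2683 in dbR libraries. Thick ascending limb markers summed to 319 to 420, 310 to 505 and 370 to 436 FPKM, so that the groups overlapped in both lists. Podocyte markers, at 60.8 to 70.2, 72.9 to 76.6 and 65.3 to 80.7 FPKM, lay apart only for control and dbdb. Marker genes of other cortical cell types moved between the groups. The 2 distal convoluted tubule markers summed to 154 to 173 FPKM in control, 281 to 308 in dbdb and 315 to 355 in dbR libraries. Endothelial markers summed to 80.2 to 88.5, 56.2 to 60.5 and 80.5 to 96.2 FPKM, and macrophage markers to 40.3 to 47.9, 19.8 to 34.9 and 28.2 to 37.2 FPKM. Collecting duct markers summed to 61.5 to 77.0, 117 to 187 and 135 to 142 FPKM, and fibroblast and mesangium markers to 13.2 to 19.4, 7.68 to 11.2 and 13.6 to 16.9 FPKM. The part of these shifts in the results on members was not tested.

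In dbdb vs. control, 71 of the 809 members differed, 41 higher and 30 lower in dbdb (limma, Benjamini-Hochberg adjusted over all 31858 transcripts tested, threshold 0.05). This is 8.78% of the members, compared to 9.23% of all transcripts tested (4.35% higher and 4.88% lower). Of mRNA transcripts with a mean of at least 1 FPKM, the limit used for the members, 13.9% were called. All 71 had groups that did not overlap, which is no separate support, since it rests on the same values as the calls. The share over all called transcripts was not counted. Fits that left out 1 library gave 25 to 41 higher and 19 to 30 lower, with the fewest higher without dbdb replicate 2 and the fewest lower without control replicate 3. The split between higher and lower calls depends on the scaling: when libraries were scaled to the sum without mitochondrial transcripts, it was 66 higher and 24 lower. Among the 668 members at or above 1 FPKM in every group, 28 were higher and 26 lower, and among the other 141, 13 were higher and 4 lower. Of the members with calls that are named below, Gm15890, AI838599, Gm42793, 2310010G23Rik, Gm43240, BB365896, 5730437C11Rik, Slc13a2os, Gm37857 and 1 transcript of Gm53 had a mean below 1 FPKM in control, and Gm15895, C4a, Gm43202 and 1 transcript of Gm20186 in dbdb and dbR. The share called was 4.22% of members between 1 and 2 FPKM, 10.5% between 2 and 10, 23.1% between 10 and 100, and 1 of the 10 at or above 100. The median log2 fold change was 0.095 for the members and 0.008 for all transcripts tested. Fold changes below are on the log2(FPKM + 0.1) scale with their standard error, and FPKM values are listed for replicates 1 to 3.

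**Figure D1:**
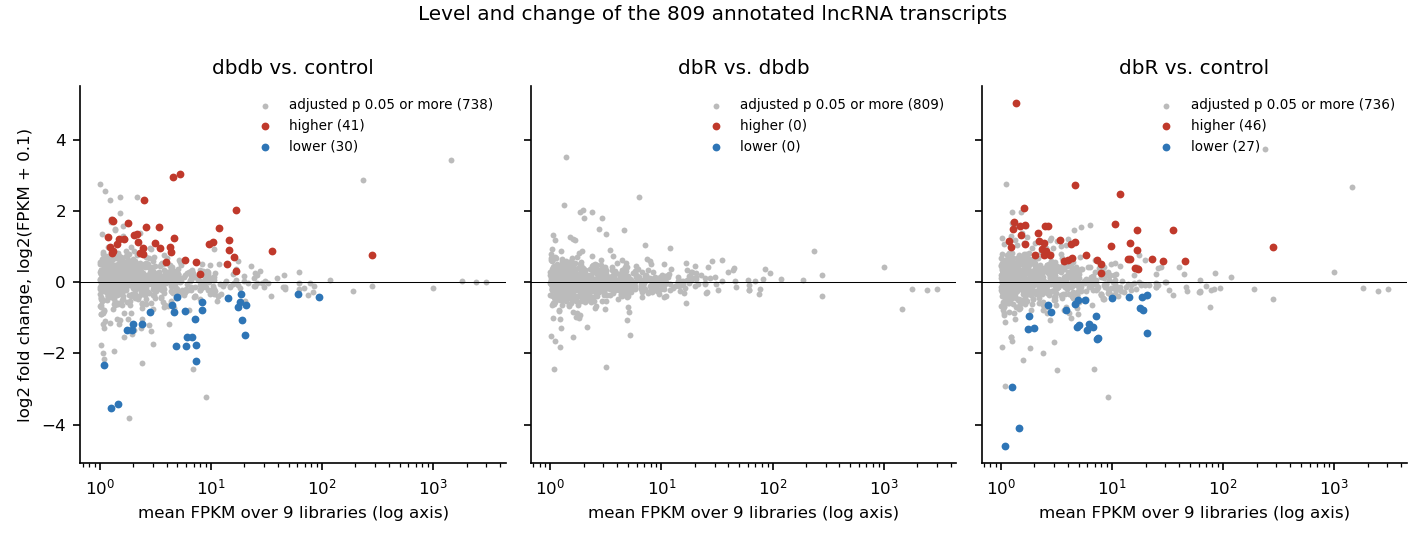
Each point is 1 of the 809 annotated lncRNA transcripts, with its mean FPKM over all libraries on a log axis and its log2 fold change in the 3 comparisons on the vertical axis. The red and blue points passed an adjusted p of 0.05: 41 higher and 30 lower in dbdb vs. control, none in dbR vs. dbdb, and 46 higher and 27 lower in dbR vs. control.

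The increases with the lowest adjusted p in dbdb came from the locus of Herpud1, which encodes a membrane protein of the endoplasmic reticulum induced by unfolded proteins. Gm15890, antisense to Herpud1 (chr8:94379184-94386972, minus strand, GRCm38), was at 1.04, 0.761 and 0.639 FPKM in control, 5.97, 5.96 and 9.23 in dbdb and 6.03, 4.83 and 6.94 in dbR libraries. It was higher in dbdb by 2.96 ± 0.23 (adjusted p = 0.00031), and both db/db groups lay above all control libraries. Gm15889, which lies 6121 bases from Herpud1 on the plus strand (chr8:94377921-94380317), was at 7.11, 6.32 and 5.52 FPKM in control, 25.4, 25.6 and 27.2 in dbdb and 16.3, 14.7 and 22 in dbR libraries. Here the dbR libraries lay between the other groups without overlap: dbdb exceeded control by 2.03 ± 0.15 (adjusted p = 0.000264), whereas the difference between dbR and dbdb, -0.58 ± 0.15, did not pass the test (adjusted p = 0.234). Herpud1 itself, summed over its mRNA transcripts, was at 159, 141 and 167 FPKM in control, 259, 253 and 262 in dbdb and 194, 205 and 215 in dbR libraries, a smaller change of 0.74 ± 0.07 in dbdb vs. control (adjusted p = 0.000155).

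Members on the same strand as a coding gene were called mostly in one direction, 13 higher and 1 lower of 204 (6.86%, compared to 9.23% of all transcripts, 4.35% higher and 4.88% lower), and 150 of the 204 had a positive fold change (median 0.202). Without the members below 1 FPKM in a group, it was 10 higher and 1 lower of 167, with 123 positive (median 0.194). The class shares its strand with the coding gene, so the values of the member and of the gene are given together. Gm38357, within Noct, which encodes the rhythmically expressed phosphatase nocturnin, was at 1.12, 1.13 and 1.12 FPKM in control, 10.3, 7.15 and 13.5 in dbdb and 1.79, 2.74 and 8.48 in dbR libraries. It was higher by 3.04 ± 0.49 in dbdb (adjusted p = 0.00703), and Noct rose by 1.83 ± 0.15 (adjusted p = 5.69e-05). In dbR vs. dbdb, Gm38357 did not pass the test (-1.49 ± 0.49, adjusted p = 0.35), with dbR replicate 3 inside the dbdb range, whereas Noct fell by 1.25 (adjusted p = 0.0235). The following 3 members were picked out after their values were seen because the roles of their coding genes in the kidney are known. RP23-207N5.3, within the ammonia transporter gene Rhcg, was higher in dbdb by 0.96 ± 0.16 (adjusted p = 0.00774), Gdap10, within Nampt of NAD salvage, by 0.85 ± 0.14 (adjusted p = 0.00791), and Gm38034, within Foxo1, an insulin-regulated transcription factor, by 0.96 ± 0.21 (adjusted p = 0.0256). Rhcg rose by 0.96 ± 0.11 (adjusted p = 0.000413) and Nampt by 0.50 ± 0.09 (adjusted p = 0.00356). Of the 14 called members of the class, 12 had the direction of the coding gene, compared to 56.5% of all sense pairs tested. Gm37857, within the epidermal matrix gene Rptn and below 1 FPKM in the control group, was at 0.4, 0.531 and 0.493 FPKM in control, 2.16, 1.58 and 1.77 in dbdb and 1.78, 1.62 and 1.19 in dbR libraries (1.75 ± 0.22, adjusted p = 0.00226). The call of Gm38034 was lost without control replicate 3 or any 1 dbdb library (adjusted p up to 0.0785).

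Antisense members were called in both directions, 15 higher and 13 lower of 307 (9.12%, compared to 9.23% of all transcripts). Of the 259 at or above 1 FPKM in every group, 9 were higher and 11 lower, and of the other 48, 6 were higher and 2 lower. Of the 27 with a tested coding partner, 26 had the same direction as the partner, and 17 partners passed the test themselves, all in that direction. Partners were tested on FPKM summed per gene, where 24.1% of all genes were called. Over all 294 antisense pairs tested, whether called or not, the share with the same direction was 65.3%. For dbR against control, 17 of 28 tested partners of called antisense members passed the test, and 15 of them had the direction of the member. Here 21.8% of all genes were called, and 65% of all pairs had the same direction. Slc13a2os, antisense to the citrate and dicarboxylate cotransporter gene Slc13a2, was at 0.428, 0.473 and 0.468 FPKM in control, 2.16, 2.03 and 1.17 in dbdb and 2.15, 1.61 and 1.37 in dbR libraries, a rise of 1.72 ± 0.27 (adjusted p = 0.00613). Slc13a2 rose by 0.83 ± 0.12 (adjusted p = 0.0011). Gm16685, antisense to the cytokine gene Il7, was at 1.95, 1.16 and 1.82 FPKM in control, 4.92, 4.47 and 5.29 in dbdb and 3.58, 3.91 and 3.76 in dbR libraries, higher by 1.55 ± 0.18 in dbdb (adjusted p = 0.0018). Its groups did not overlap, and dbR lay between control and dbdb. Il7 differed by 0.28 ± 0.22 and did not pass the test (adjusted p = 0.412). Gm20402, opposite Foxo1 and named after its values were seen, was at 9.35, 11 and 9.09 FPKM in control, 15.9, 21.2 and 18.5 in dbdb and 14.7, 14.3 and 17.2 in dbR libraries (0.91 ± 0.12, adjusted p = 0.00346), and Foxo1 rose by 0.76 ± 0.08 (adjusted p = 0.000197). The largest antisense decrease was that of Gm15895, opposite Il34, a ligand of the macrophage receptor CSF1R. It was at 4.24, 3.18 and 4.34 FPKM in control, 0.0762, 0.371 and 0.506 in dbdb and 0.0623, 0.136 and 0.235 in dbR libraries, or an estimated 1 to 63 fragments, and fell by 3.43 (SE 0.48, adjusted p = 0.00384). Il34 fell by 1.86 (adjusted p = 0.00223). Gm15962, opposite Keg1, a gene related to glycine N-acyltransferases, was at 12.2, 8.68 and 10.5 FPKM in control, 2.64, 3.64 and 2.57 in dbdb and 7.02, 3.4 and 2.71 in dbR libraries (-1.80 ± 0.32, adjusted p = 0.0112), and Keg1 fell by 1.41.

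The antisense member with the lowest adjusted p, 3110045C21Rik, whose promoter is shown above, was lower in dbdb, while its partner did not pass the test. It was at 9.63, 10.8 and 10.7 FPKM in control, 3.61, 3.63 and 3.23 in dbdb and 4.12, 4.63 and 4.9 in dbR libraries, -1.54 ± 0.10 in dbdb vs. control (adjusted p = 0.000176). Ddr2, a collagen receptor gene on the other strand, differed by 0.11 ± 0.19 (adjusted p = 0.727). Airn, the antisense RNA known for imprinting of Igf2r, had 2 members. The more abundant member was at 10.4, 11.2 and 22.3 FPKM in control, 3.84, 2.17 and 2.88 in dbdb and 4.01, 4.31 and 5.54 in dbR libraries, and all db/db libraries lay below all control libraries (-2.21 ± 0.31 in dbdb vs. control, adjusted p = 0.00362). The other member (-0.49 ± 0.19, adjusted p = 0.16) did not pass the test, and neither did Igf2r (-0.12 ± 0.13, adjusted p = 0.567).

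**Figure D2:**
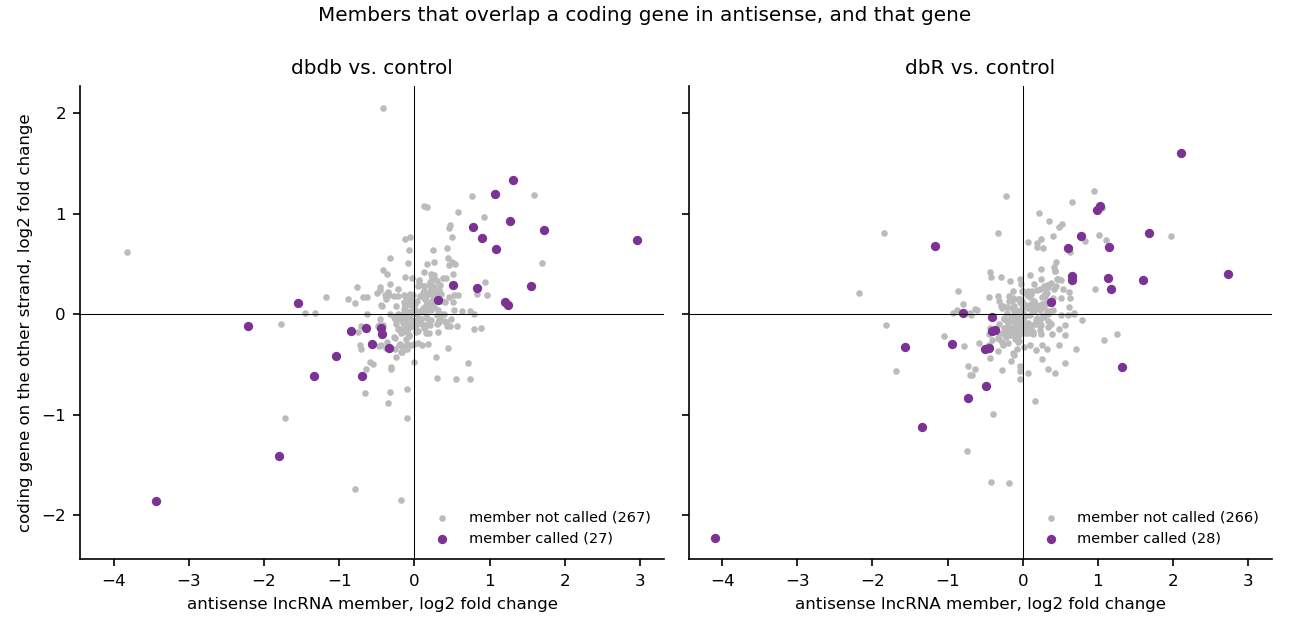
Each point is 1 of 294 pairs, with the log2 fold change of the antisense member on the horizontal axis and that of the coding gene on the other strand on the vertical axis, for dbdb vs. control (left) and dbR vs. control (right). Purple points are called members, of which 26 of 27 (left) and 25 of 28 (right) lie in the quadrants of equal sign; both panels use the same control libraries.

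Divergent members, which share a promoter region with a coding gene, gave 0 higher and 5 lower of 86 in dbdb vs. control (limma; 7 higher and 10 lower at an unadjusted p under 0.05), where 4.35% of all transcripts were higher and 4.88% lower. Gm20186, divergent from the RNA-binding protein gene Lsm8, was at 32, 33.2 and 41.6 FPKM in control, 13.2, 11.2 and 13.1 in dbdb and 12.9, 12.1 and 14.8 in dbR libraries, -1.49 ± 0.12 (adjusted p = 0.000413), while Lsm8 differed by 0.14 ± 0.10 (adjusted p = 0.345). A second Gm20186 member was at 1.85, 2.91 and 2.39 FPKM in control, 4.77e-05, 1.86 and 0.718 in dbdb and 5.83e-05, 9.56e-05 and 7.97e-05 in dbR libraries. It was lower in dbR than in control (-4.61 ± 0.91, adjusted p = 0.0184), a call lost without control replicate 2, control replicate 3 or any 1 dbR library (adjusted p up to 0.0637), and since it is near 0 in dbR the size depends on the 0.1 added before the logarithm. By contrast 2500002B13Rik fell with its partner Sap30, a subunit of the Sin3 corepressor complex (-1.43 ± 0.11, adjusted p = 4.00e-05). This member, named after its values were seen, was at 3.9, 4.09 and 4.19 FPKM in control, 2.18, 2.43 and 2.1 in dbdb and 2.27, 2.38 and 2.0 in dbR libraries (-0.83 ± 0.12, adjusted p = 0.00351). In all, 2 of 5 called divergent members had the direction of the partner (58.1% of all 86). Among members farther from coding genes, AI838599, whose amplicon is shown above, was at 0.593, 0.598 and 1.23 FPKM in control, 4.13, 3.64 and 4.85 in dbdb and 2.84, 1.89 and 2.83 in dbR libraries (2.31 ± 0.28, adjusted p = 0.00211). Gm6135, with no coding gene within 100 kb, was at 4.31, 3.27 and 3.35 FPKM in control, 12.2, 13.8 and 6.95 in dbdb and 15.8, 23.1 and 23.6 in dbR libraries (1.52 ± 0.26, adjusted p = 0.01). E230001N04Rik lies 5193 bases from Fkbp5, a glucocorticoid-induced co-chaperone gene, and was at 1.59, 0.59 and 1.24 FPKM in control, 2.53, 3.32 and 4.18 in dbdb and 3.24, 2.91 and 4.03 in dbR libraries (1.54 ± 0.33, adjusted p = 0.0235), a call lost without control replicate 3, dbdb replicate 2 or dbdb replicate 3 (adjusted p up to 0.0789). Gm4208, 2660 bases from the neuropilin gene Nrp2, fell, at 8.18, 8.35 and 8.95 FPKM in control, 1.71, 3.33 and 2.36 in dbdb and 2.91, 3.37 and 4.31 in dbR libraries (-1.79 ± 0.23, adjusted p = 0.00235). Gm27216, whose nearest coding gene Hmgn3 is 93796 bases away, had a called member at 13.2, 11.7 and 15.4 FPKM in control, 3.68, 3.93 and 3.9 in dbdb and 2.73, 4.64 and 6.65 in dbR libraries (-1.77 ± 0.27, adjusted p = 0.00551). Gm29012, with no coding gene within 100 kb, was at 12.3, 9.32 and 12.9 FPKM in control, 4.68, 3.41 and 3.62 in dbdb and 4.85, 5.04 and 4.3 in dbR libraries (-1.53 ± 0.16, adjusted p = 0.00101). The class farther than 100 kb from coding genes had 4 higher and 4 lower of 30 (26.7%, compared to 9.23% of all transcripts), or 2 higher and 4 lower of the 25 at or above 1 FPKM in every group. C4a was at 2.75, 2.78 and 4.14 FPKM in control and at most 0.388 in dbdb libraries (-3.54 ± 0.57, adjusted p = 0.00684), but it is nearly identical to C4b, so that its reads are uncertain. Summed over the transcripts of C4a, the difference was -0.78 and did not pass the test (adjusted p = 0.376). Gm43202 was at 1.79, 2.15 and 2.01 FPKM in control, 0.118, 0.23 and 0.894 in dbdb and 0.96, 1.05 and 0.607 in dbR libraries (-2.33 ± 0.51, adjusted p = 0.0249), and its call was lost in 5 of 9 fits that left out 1 library, each of the control libraries, dbdb replicate 1 or dbdb replicate 2 (adjusted p up to 0.0816).

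**Figure D3:**
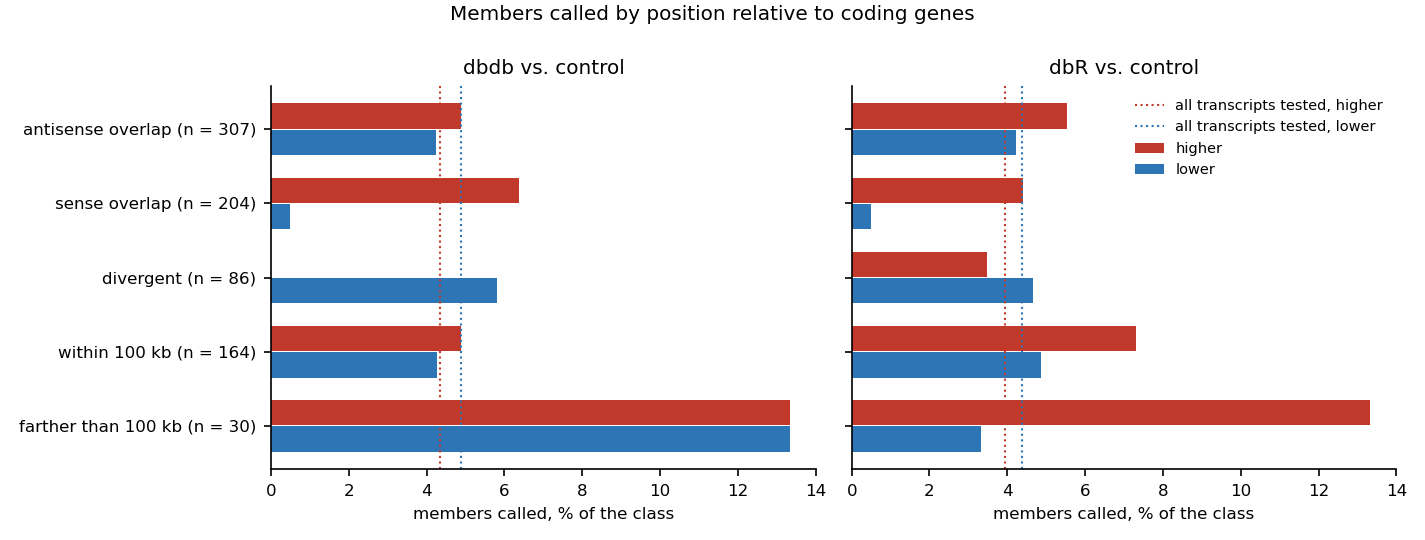
Bars give the percentage of each position class called higher (red) or lower (blue) in dbdb vs. control and dbR vs. control, on an axis from 0, and dotted lines give the percentages over all transcripts tested. The sense-overlapping class shows 13 higher and 1 lower of 204 in dbdb vs. control, and the divergent class 0 higher and 5 lower of 86.

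In dbR vs. dbdb, which asks what rosiglitazone changed in the diabetic cortex, no member passed the adjusted threshold in limma (lowest adjusted p = 0.148). At an unadjusted p under 0.05 there were 77 members (9.5%, 42 higher and 35 lower in dbR), compared to 10.2% of all transcripts tested, of which 0.0126% passed the adjusted threshold. The lowest p was that of a Gas5 transcript. Gas5 hosts snoRNAs in its introns, and its spliced RNA can bind the glucocorticoid receptor. This transcript was at 21.1, 29 and 23.7 FPKM in control, 26.1, 22.9 and 23.9 in dbdb and 37.7, 35 and 38.3 in dbR libraries, and all dbR libraries lay above the other 6 (0.61 ± 0.11, adjusted p = 0.148). Summed over the annotated transcripts of Gas5, the values were 90.4, 92.8 and 96.6 FPKM in control, 97, 85.2 and 94.4 in dbdb and 117, 118 and 126 in dbR libraries, and dbR was higher than dbdb by 0.38 ± 0.06 (adjusted p = 0.0443) and than control by 0.37 ± 0.06 (adjusted p = 0.00326), with a difference of -0.02 in dbdb vs. control.

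When FPKM were summed per gene in this way, the members' genes with a call were 141 of 694 in dbdb vs. control (20.3%, compared to 24.1% of all 16550 genes), 2 in dbR vs. dbdb (0.288%, against 0.399%) and 125 in dbR vs. control (18%, against 21.8%). The other gene in dbR vs. dbdb was Gm26883, antisense to the zinc finger gene Tshz2, the sum of 2 transcripts, with 3.44, 3.53 and 2.99 FPKM in control, 3.55, 3.0 and 3.61 in dbdb and 5.05, 5.57 and 5.18 in dbR (0.63 ± 0.10, adjusted p = 0.0451). Of the members, 4633401B06Rik, within the peroxisomal transporter gene Abcd3, lay closest to the threshold in the other direction. It was at 2.26, 1.79 and 2.27 FPKM in control, 4.77, 4.86 and 4.15 in dbdb and 3.08, 2.43 and 2.52 in dbR libraries, and it was higher in dbdb than in control (1.09 ± 0.14, adjusted p = 0.00282). The difference of dbR from dbdb did not pass the test (-0.76 ± 0.14, adjusted p = 0.155). The sense-overlapping class as a whole had a median of -0.117 in dbR vs. dbdb with 66 of 204 positive. This comparison and dbdb vs. control share the dbdb libraries. Other members with low p that did not pass the test were 1810063I02Rik, at 6.38, 3.48 and 2.52 FPKM in control, 5.3, 2.0 and 0.953 in dbdb and 10.1, 15.4 and 10.8 in dbR libraries (2.39 ± 0.56, adjusted p = 0.206), and Gm17767, at 2.11, 2.18 and 2.25 FPKM in control, 2.94, 2.68 and 3.69 in dbdb and 2.11, 2.03 and 2.22 in dbR libraries (-0.52 ± 0.14, adjusted p = 0.251). In both the dbR and dbdb libraries did not overlap, and for Gm17767 the dbR and control libraries did. Gm28221, antisense to the calcium-binding protein gene Ncald, was at 7.94, 5.34 and 6.04 FPKM in control, 5.58, 3.23 and 5.87 in dbdb and 8.71, 9.45 and 11.5 in dbR libraries (1.04 ± 0.24, adjusted p = 0.203). Gm11974, near Myo1g, was at 1.62, 1.03 and 1.64 FPKM in control, 2.04, 2.29 and 2.13 in dbdb and 1.05, 1.14 and 1.32 in dbR libraries (-0.83 ± 0.20, adjusted p = 0.218), and AI507597, antisense to Tmem82, at 1.27, 1.69 and 1.46 FPKM in control, 3.15, 2.07 and 2.75 in dbdb and 1.84, 1.26 and 0.991 in dbR libraries (-0.93 ± 0.25, adjusted p = 0.251). In these 3 the dbR libraries also lay apart from the dbdb libraries. 2610035D17Rik, 1 of the PCR targets, was at 2.76, 1.03 and 3.05 FPKM in control, 1.27, 0.602 and 0.56 in dbdb and 2.55, 2.6 and 3.68 in dbR libraries (1.81 ± 0.43, adjusted p = 0.212).

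**Figure D4:**
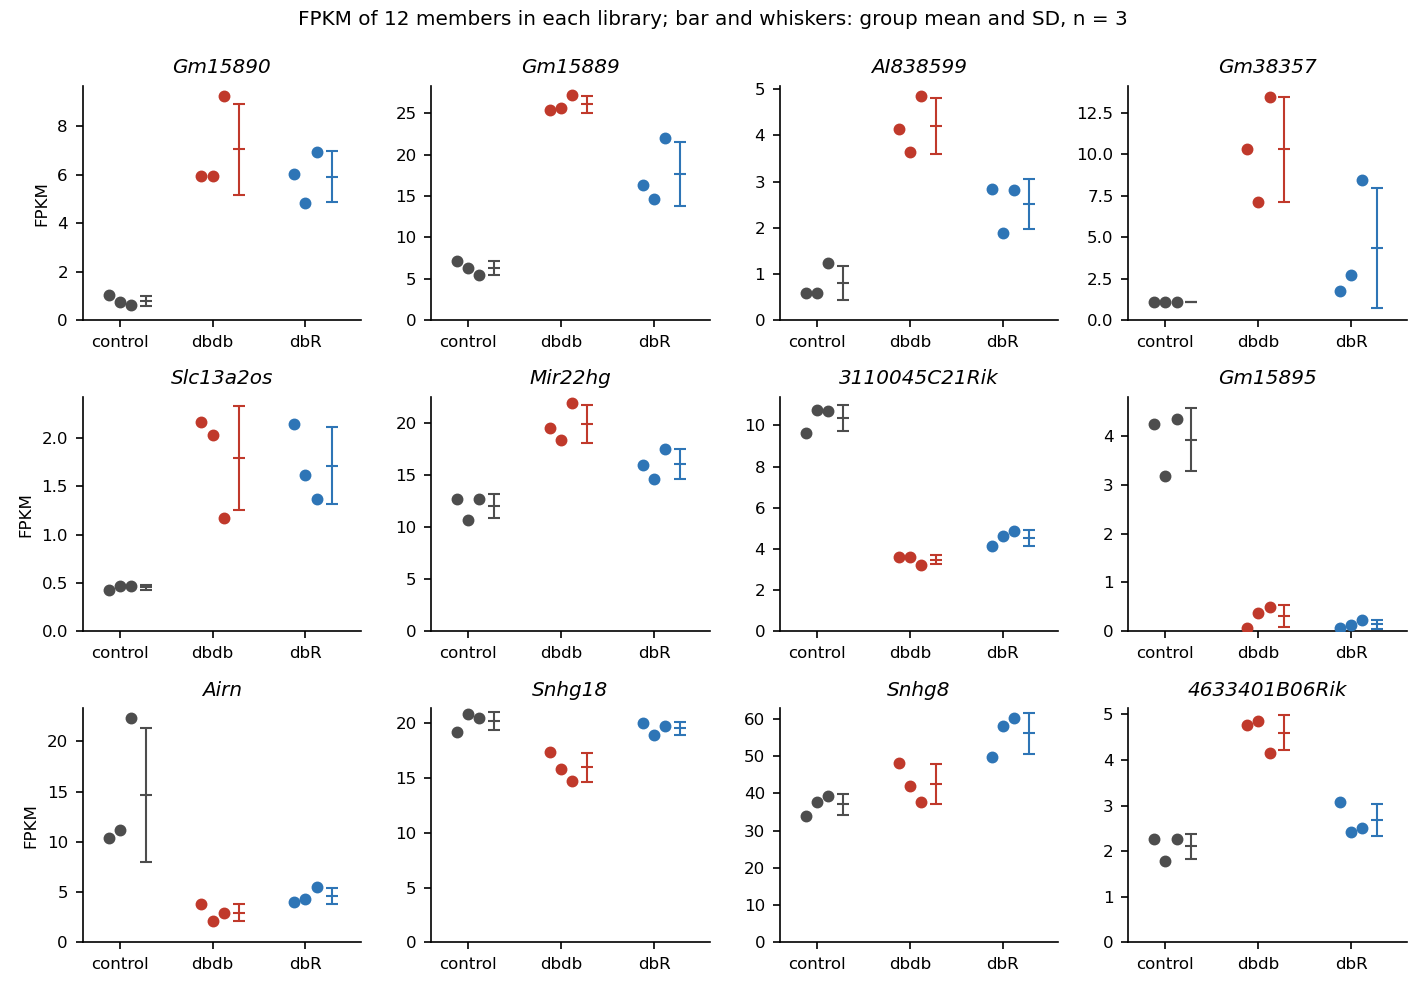
FPKM of 12 members in each library (points, linear axes from 0) with the group mean and SD (bar and whiskers, n = 3). Gm15890 and Gm15889 are higher in both db/db groups than in every control library, 3110045C21Rik and Gm15895 are lower in both, and 4633401B06Rik is higher in the 3 dbdb libraries than in the other 6.

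In dbR vs. control, 73 members differed, 46 higher and 27 lower in dbR, or 9.02% compared to 8.3% of all transcripts tested (3.93% higher and 4.37% lower), and 55 higher and 19 lower with the scaling without mitochondrial transcripts. Of mRNA transcripts with a mean of at least 1 FPKM, the members' own limit, 12.6% were called. Fits that left out 1 library gave 25 to 44 higher and 13 to 29 lower members. The split was 28 higher and 13 lower without control replicate 3, 35 and 17 without control replicate 2, 26 and 20 without dbR replicate 1, 28 and 14 without dbR replicate 2, and 25 and 17 without dbR replicate 3. The comparison shares its control libraries with dbdb vs. control. Of the 668 members at or above 1 FPKM in every group, 33 were higher and 24 lower, and of the other 141, 13 were higher and 3 lower. The members of the Herpud1 locus were also high here, with 2.73 ± 0.23 for Gm15890 (adjusted p = 0.000566) and 1.46 ± 0.15 for Gm15889 (adjusted p = 0.00106). Likewise 3110045C21Rik (-1.17 ± 0.10, adjusted p = 0.00049), whose partner Ddr2 rose (0.68 ± 0.19, adjusted p = 0.0331), and Gm15895 (-4.09 ± 0.48, adjusted p = 0.00199) were low, and Slc13a2os (1.68 ± 0.27, adjusted p = 0.00726) and Gm6135 (2.47 ± 0.26, adjusted p = 0.00138) were high. For AI838599 (1.58 ± 0.28, adjusted p = 0.0128) the call was lost without dbR replicate 1 or dbR replicate 3 (adjusted p up to 0.0515), and for Airn (-1.57 ± 0.31, adjusted p = 0.0179) without dbR replicate 1 or dbR replicate 2 (up to 0.0679). BB365896, opposite Fam13a, was at 0.788, 0.633 and 0.514 FPKM in control, 1.83, 1.9 and 1.18 in dbdb and 2.72, 2.32 and 1.51 in dbR libraries (1.59 ± 0.28, adjusted p = 0.0115). Gm43031, on the strand of Akap9, a gene of a centrosomal anchoring protein, was at 2.42, 3.62 and 3.81 FPKM in control, 1.5, 1.27 and 1.32 in dbdb and 1.39, 1.32 and 1.08 in dbR libraries (-1.29 ± 0.20, adjusted p = 0.00649). 4930533I22Rik, near Ppm1k, was at 2.59, 3.16 and 3.2 FPKM in control, 1.06, 1.25 and 1.01 in dbdb and 1.65, 0.724 and 1.17 in dbR libraries (-1.33 ± 0.27, adjusted p = 0.0193), a call lost without control replicate 2, control replicate 3 or dbR replicate 3 (up to 0.0724).

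The calls of 2 further members with large differences were often lost when 1 library was left out. For Gm43240 this included each dbdb library, which enters the comparison only through the shared spread. Gm43240, antisense to Clca3a2, was at 1.28, 0.186 and 0.434 FPKM in control, 1.54, 1.31 and 2.38 in dbdb and 2.28, 2.32 and 2.77 in dbR libraries (2.1 ± 0.51, adjusted p = 0.0389), and its call was lost in 8 of 9 fits that left out 1 library, all but the one without control replicate 1 (up to 0.115). 2310010G23Rik was at 0.762, 0.419 and 0.91 FPKM in control, 2.67, 1.3 and 1.63 in dbdb and 1.53, 2.98 and 2.5 in dbR libraries (1.61 ± 0.36, adjusted p = 0.0308), a call lost without any 1 control library, dbR replicate 2 or dbR replicate 3 (up to 0.103).

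Some members had their larger difference in dbR. AW822252 was at 3.86, 4.85 and 6.22 FPKM in control, 14.6, 11.8 and 7.21 in dbdb and 13.2, 18.1 and 14.9 in dbR libraries (1.63 ± 0.27 in dbR vs. control, adjusted p = 0.00809), and the dbdb libraries overlapped those of dbR. Gm12840, named after its values were seen, was at 18, 19.3 and 18.2 FPKM in control, 24, 35.4 and 45.8 in dbdb and 45.7, 53.8 and 56.7 in dbR libraries (1.48 ± 0.20, adjusted p = 0.00374). Gm17035, antisense to Ndrg1, a stress- and hypoxia-responsive gene, was the most abundant called member, at 170.3, 213 and 154 FPKM in control, 272, 315 and 328 in dbdb and 355, 294 and 417 in dbR libraries (0.99 ± 0.15, adjusted p = 0.00661), and Ndrg1 rose by 1.04 ± 0.13. The call of Gm17035 in dbdb vs. control (0.78 ± 0.15, adjusted p = 0.0171) was lost without control replicate 1 or 3 or dbdb replicate 2 or 3 (up to 0.0611). Others lay nearer to the control values in dbR than in dbdb. Gm38357 in Noct was not called (1.55 ± 0.49, adjusted p = 0.0963), and neither was Gm42793, on the strand of the osteopontin gene Spp1, which was at 0.963, 1.19 and 0.567 FPKM in control, 2.58, 2.71 and 3.76 in dbdb and 1.87, 1.31 and 1.2 in dbR libraries (dbR vs. control 0.66 ± 0.29, adjusted p = 0.218), although it was higher in dbdb (1.66 ± 0.29, adjusted p = 0.00966). 5730437C11Rik was listed at 0 in all control libraries and at 3.32, 2.0 and 4.81 FPKM in dbR, with only dbdb replicate 2 above 0 in that group; its call was lost without any 1 control or dbR library (adjusted p up to 0.088).

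The snoRNA hosts comprised 32 members of 15 genes. In dbdb vs. control 1 was higher and 1 lower (6.25%, compared to 9.23% of all transcripts, 4.35% higher and 4.88% lower), and in dbR vs. control 5 were higher and 0 lower, compared to 3.93% and 4.37% of all transcripts tested (limma; 10 higher and 2 lower at an unadjusted p under 0.05), with a median log2 fold change of 0.223 over the 32 members compared to 0.041 over all members and 0.008 over all transcripts tested. The 5 were 2 Gas5 transcripts, Snhg4, Snhg8 and Epb41l4aos, and the call of Epb41l4aos (0.64 ± 0.16, adjusted p = 0.045) was lost in 7 of 9 fits without 1 library (adjusted p up to 0.14). For the Gas5 transcript with the lowest p in dbR vs. dbdb (0.60 ± 0.11 in dbR vs. control, adjusted p = 0.0138), it was lost without control replicate 3, dbR replicate 1 or dbR replicate 3 (up to 0.0538). In dbR vs. control, 17 of the 32 had a positive fold change. Of 37 members with a snoRNA within their span in the annotation, 4 were higher and 0 lower, and 19 were positive (median 0.144). The summed level of the hosts was 268, 285 and 289 FPKM in control, 336, 281 and 299 in dbdb and 342, 367 and 372 in dbR libraries, so that each dbR library lay above all others (exact two-sided permutation p = 0.1 against either group, the smallest possible, and 0.3 for dbdb vs. control). The genes differed among themselves. The ratio of dbR to control means was 1.29 for Gas5, 1.32 for 2410006H16Rik, 1.51 for Snhg8, 1.55 for Snhg4 and 1.73 for Snhg5. It was 0.86 for Snhg1 and Snhg14 and 0.90 for Dancr. For dbdb to control, the ratio was 0.99 for Gas5, 0.996 for 2410006H16Rik, 1.15 for Snhg8, 1.49 for Snhg4 and 1.97 for Snhg5. It was 1.04 for Snhg1, 0.87 for Snhg14 and 0.97 for Dancr. From dbdb to dbR, Gas5, 2410006H16Rik and Snhg8 thus rose (ratios 1.30, 1.33 and 1.32), Snhg4 changed little (1.04) and Snhg5 fell (0.88). The 6 starts with a pyrimidine run shown above belong to genes with ratios of dbR to control means between 0.97 (Snhg18) and 1.51 (Snhg8). Snhg8 was at 34, 37.7 and 39.4 FPKM in control, 48.2, 41.9 and 37.6 in dbdb and 49.9, 58.1 and 60.2 in dbR libraries (0.59 ± 0.11 in dbR vs. control, adjusted p = 0.0131), a call lost without dbR replicate 2 or dbR replicate 3 (adjusted p up to 0.052).

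**Figure D5:**
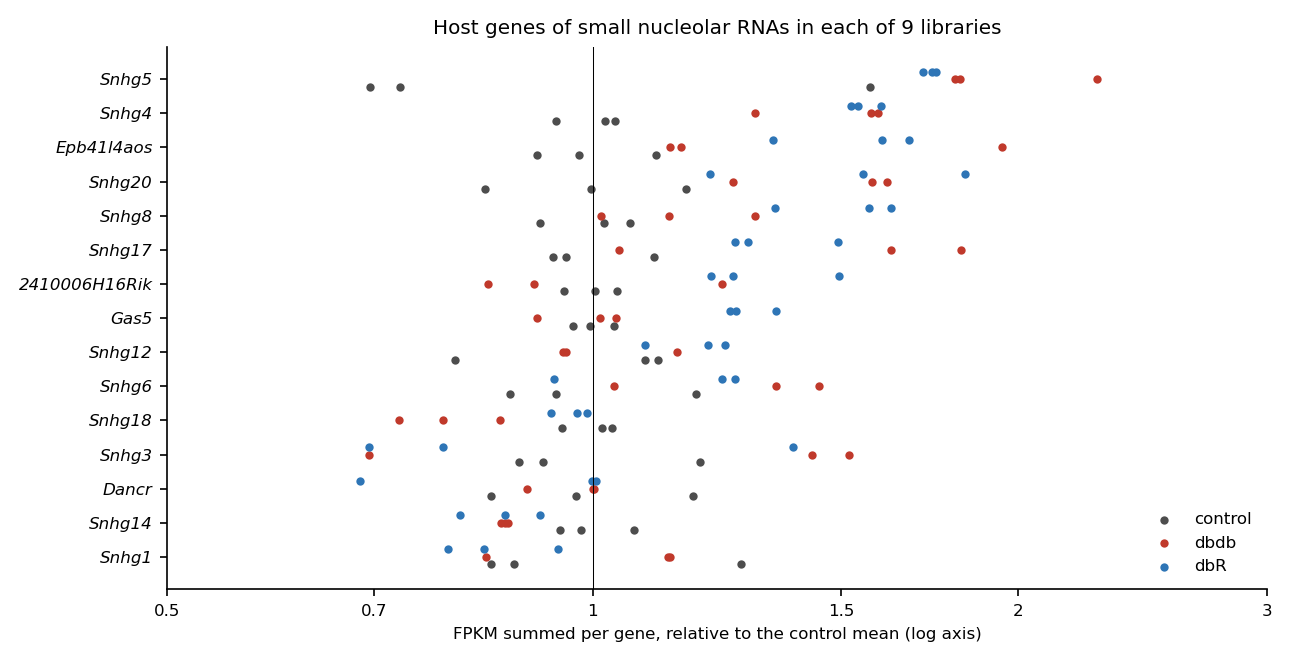
Each point is 1 library, with the FPKM summed per gene divided by the control mean of that gene on a log axis, for 15 snoRNA host genes ordered by their ratio of dbR to control means. That ratio runs from 0.86 for Snhg1 to 1.73 for Snhg5, and the 3 dbR libraries lie above the other 6 for Gas5 and Snhg8.

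Snhg4 was raised in both db/db groups, at 3.05, 2.77 and 3.0 FPKM in control, 3.84, 4.63 and 4.69 in dbdb and 4.71, 4.48 and 4.54 in dbR libraries (0.56 ± 0.10, adjusted p = 0.0137, and 0.62 ± 0.10, adjusted p = 0.00945), with the first call lost without dbdb replicate 2 (adjusted p = 0.0524). Snhg18 moved the other way in dbdb, at 19.2, 20.8 and 20.5 FPKM in control, 17.4, 15.8 and 14.7 in dbdb and 20.0, 18.9 and 19.7 in dbR libraries (-0.34 ± 0.07, adjusted p = 0.0211). Each dbR library exceeded each dbdb library, but the difference did not pass the test (0.29 ± 0.07, adjusted p = 0.218), and the call in dbdb vs. control was lost without control replicate 2 or 3 or dbdb replicate 2 or 3 (adjusted p up to 0.0685). With libraries scaled to the sum without mitochondrial transcripts, the difference in dbdb vs. control was -0.19 and did not pass the test (adjusted p = 0.152).

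Among 15 microRNA host members, Mir22hg was higher in dbdb and dbR, and a Dleu2 transcript was lower in dbR, a call lost in 7 of 9 fits that left out 1 library (adjusted p up to 0.118). Over all transcripts tested, 4.35% were higher in dbdb vs. control, and 3.93% were higher and 4.37% lower in dbR vs. control. Mir22hg was at 12.7, 10.7 and 12.7 FPKM in control, 19.5, 18.3 and 21.9 in dbdb and 15.9, 14.7 and 17.5 in dbR libraries (0.72 ± 0.10, adjusted p = 0.00374, and 0.41 ± 0.10, adjusted p = 0.0426). The second call was lost in 8 of 9 fits that left out 1 library (adjusted p up to 0.128). The libraries measure the host RNA, not the mature miR-22 arms printed above. Of 10 members in Hox clusters, 3 were higher in both comparisons with the control group: 2 transcripts of Gm53 and Hoxb5os. Hoxb5os was at 11, 9.06 and 11.3 FPKM in control, 14, 13.5 and 17.7 in dbdb and 15.2, 16.2 and 18.3 in dbR libraries (0.52 ± 0.13, adjusted p = 0.0432, and 0.66 ± 0.13, adjusted p = 0.0184). The dbdb call was lost in all 9 fits without 1 library (adjusted p 0.0549 to 0.119), and the dbR call without control replicate 2, dbR replicate 2 or dbR replicate 3 (up to 0.0676). Of 4 imprinted members, Airn was lower and Peg13 higher in both comparisons, in which 9.23% and 8.3% of all transcripts were called. Peg13 showed the smallest difference among the calls in these lists, at 7.08, 7.13 and 7.14 FPKM in control, 8.49, 8.14 and 8.54 in dbdb and 8.83, 8.35 and 8.48 in dbR libraries (0.23 ± 0.06, adjusted p = 0.0462), which was also lost in all 9 such fits (0.054 to 0.116), while its dbR call was lost in 6 (up to 0.0968).

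None of the 10 members listed as nuclear and abundant (Malat1, Neat1, Tug1, Gm26917 and Yam1) and none of the 6 X-linked members passed the test in any comparison in limma. At an unadjusted p under 0.05 there were 0 of the 10 in each comparison, and 2, 0 and 1 of the 6 in dbdb vs. control, dbR vs. dbdb and dbR vs. control. In the list linked to p53 and stress, 1 of 13 (Mir22hg) was higher in dbdb vs. control and 3 (Mir22hg and 2 Gas5 transcripts) in dbR vs. control, which are the transcripts counted under the host lists above. The list of PCR targets and treatment-reversed lncRNAs held 8 members, of which 1 was higher (AI838599) and 1 lower (Snhg18) in dbdb vs. control, and 1 was higher in dbR vs. control. These were picked from the same libraries, so their directions are no independent evidence. Of 38 members named as opposite-strand transcripts, 2 were higher in dbdb vs. control (Slc13a2os and Hoxb5os), and 4 were higher (also Tmem147os and Epb41l4aos) and 1 lower (Hnf1aos2) in dbR vs. control, compared to 4.35% of all transcripts higher in the first comparison, and 3.93% higher and 4.37% lower in the second. The calls of Tmem147os (0.76 ± 0.19, adjusted p = 0.0425) and Hnf1aos2 (-0.79 ± 0.19, adjusted p = 0.037) were lost in 8 and 7 of 9 fits without 1 library (up to 0.124 and 0.113). For 71 genes with several members, the members of a gene all had the same direction in 33 genes in dbdb vs. control, 36 in dbR vs. dbdb and 38 in dbR vs. control.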

How the data were processed

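Renal cortex RNA of 9 mice was depleted of ribosomal RNA and sequenced as directional paired reads, 1 library per mouse. According to the study's methods, reads were aligned with TopHat2 2.0.9 to GRCm38.p2, transcripts were assembled with Scripture and Cufflinks, and the authors deposited FPKM per transcript from Cufflinks 2.1.1, for annotated lncRNAs, assembled lncRNAs and mRNAs in separate files of each library. FPKM are not counts, and a 0 can be a failed estimate: 23 members were listed at 0 in at least 1 library. Fragments were estimated from the steps between low FPKM (88.3% to 91.3% of low values within 0.1 of a whole fragment).

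The members and gene lists were chosen with earlier results of these data known. All transcripts with a mean of at least 0.1 FPKM (31858, of which 29362 mRNAs) entered 1 limma model (version 3.58.1, R 4.3.3) of log2(FPKM + 0.1) with the 3 groups, an intensity trend and Benjamini-Hochberg adjustment over all transcripts of a comparison at 0.05. The pseudocount understates changes of low transcripts. The same model was fitted to FPKM summed per gene (16550 genes), which also gave the values of coding partners. Sums were compared by exact two-sided permutation tests. The fits were tested on simulated data. Text names the 10 highest members, the 10 largest called changes per direction in each comparison, the 5 lowest p per direction in dbR vs. dbdb and the called members of the lists, and says where a member was added after its values were seen. Position classes and transcript IDs came from GENCODE M21 (791 of 809 members found, 729 with the same version), and promoters and microRNAs from RefSeq (326 members with a promoter). Replicate numbers did not pair the libraries: 9 same-number correlations of deviations from the group means ran from -0.033 to 0.026. The limma p-values set a group difference against the spread between mice within groups. That spread was pooled over the 3 groups and moderated across all transcripts. Other pseudocounts, filters, scalings and models and the omission of each library were tried.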

Additional observations from a re-analysis of the deposited data

How the results depend on the processing

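The counts of called members were 71, 0 and 73 in dbdb vs. control, dbR vs. dbdb and dbR vs. control. They moved by over 1.5 times only when FPKM were summed per gene (141, 2 and 125 genes) and when 1 library was left out, where they ran from 46 (without dbdb replicate 2) to 71, from 0 to 1 and from 41 (without control replicate 3) to 73. Without dbR replicate 1 the last count was 46, without dbR replicate 2 or dbR replicate 3 it was 42, and without control replicate 3 the first was 47. The 1 call in dbR vs. dbdb was 5730437C11Rik without dbdb replicate 2. The summed FPKM of the members differed by 1458 in dbdb vs. control, by 2983 when scaled to the sum without mitochondrial transcripts, and by -82.4 without Gm26917 and Yam1. Leaving out 1 library gave 1070 to 2104 in dbdb vs. control, -2062 to -832 in dbR vs. dbdb and -604 to 741 in dbR vs. control. The scaling without mitochondrial transcripts shifted every log2 fold change by 0.15, -0.06 and 0.09 in the 3 comparisons. With the replicate number as a block, which the pairing check did not support, 56, 0 and 57 members were called. Of the called members followed through all settings, not all of which are named in the text, 29 of 43 in dbdb vs. control and 24 of 48 in dbR vs. control passed the threshold in every setting, and none changed direction. The effect of depth on these counts was not tested.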
